A study of Ovis aries with 16 samples.

Results

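Chemokines are small secreted proteins that steer the movement of leukocytes, and the rows of a sheep fat RNA sequencing table that carry their names, or the names of their receptors, are described here. The 42 rows were chosen from 28524 by symbol alone, as those whose name starts with CCL, CXCL, CX3CL, CCR, CXCR, CX3CR or ACKR and a number. They hold 24 ligands, 15 conventional receptors and 3 atypical receptors. Of these, 23 had enough reads to be tested in at least 1 comparison of depots or treatments (14 ligands, 7 conventional and 2 atypical receptors), and 19 were too low to judge in all of them.

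A chemokine acts by binding a receptor that spans the membrane and signals through G proteins, so that a cell moves towards higher concentrations of the ligand. The atypical receptors (ACKR) bind chemokines without that signal, and take up, carry or clear them. In fat, chemokines are best known for drawing in monocytes, macrophages and lymphocytes, and vessel and stromal cells make several of them in health. The roles given below are those known from human and mouse.

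The libraries came from ewes aged 21 months whose mothers had been injected under the skin each day with bisphenol A (BPA, a plastics monomer with hormone-like activity) at 0.5 mg/kg in corn oil, or with corn oil alone as the control, from day 30 to day 90 of a pregnancy of about 147 days. Visceral fat was mesenteric and lay around the rumen's ventral sac, and subcutaneous fat came from over the sternum, each taken 24 hours after the last of the prostaglandin F2α injections given to synchronise oestrus in all animals. Each of the 4 groups (visceral control, visceral BPA, subcutaneous control, subcutaneous BPA) had 4 libraries, and 5 library numbers, 3 of controls and 2 of BPA animals, occurred in both depots and are taken here to mark animals. Nothing in the labels says how many mothers the animals came from.

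Total counts were 10998858 to 13110261 in visceral control libraries, 6768945 to 14305764 in visceral BPA, 4738482 to 6223460 in subcutaneous control and 3046126 to 4828287 in subcutaneous BPA, so a low gene was measured less precisely in subcutaneous fat, and least so after BPA. Adipocyte markers (ADIPOQ, PLIN1, LIPE, CIDEC, LEP and FABP4) summed to between 9913 and 27077 CPM in every library, where CPM are counts scaled to a library of 1000000 reads. Mesothelial markers (MSLN, UPK3B, WT1, KRT19, LRRN4, UPK1B) summed to 25.1 to 257 CPM in visceral and 0.293 to 3.44 CPM in subcutaneous libraries, with no overlap between depots. Subcutaneous controls 902 and 924 stood apart in their B and plasma cell markers, which summed to 202 and 138 CPM against 31.0 to 38.3 CPM in the other 2 libraries of that group. Results that rest on these libraries are given with and without them. Visceral BPA 977 stood apart too, with mesothelial markers at 257 CPM against 25.1 to 50.8 CPM in the others of its group. Its fibroblast and progenitor markers summed to 2941 CPM against 734 to 1395 CPM, and its adipocyte markers were the lowest of that group at 13436 CPM. In bulk tissue, fewer cells of a type and less RNA per cell cannot be told apart.

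The family was a small share of each library, 0.0351% to 0.0796% of its counts, and a few genes made up most of it. Over all 16 libraries its members drew 74961 counts, of which ligands held 87.5%. CXCL12, a stromal chemokine that binds CXCR4 and ACKR3 and retains blood cell precursors in the marrow, gave 39223 counts or 59.8% of all ligand counts. CCL14, a plasma chemokine that acts on CCR1, gave another 23.2%. Among the receptors, the CXCL12 scavenger ACKR3 held 52.8% of the 9364 counts and ACKR1, the Duffy antigen of venules and red cells, 9.40%.

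**Figure D1:**
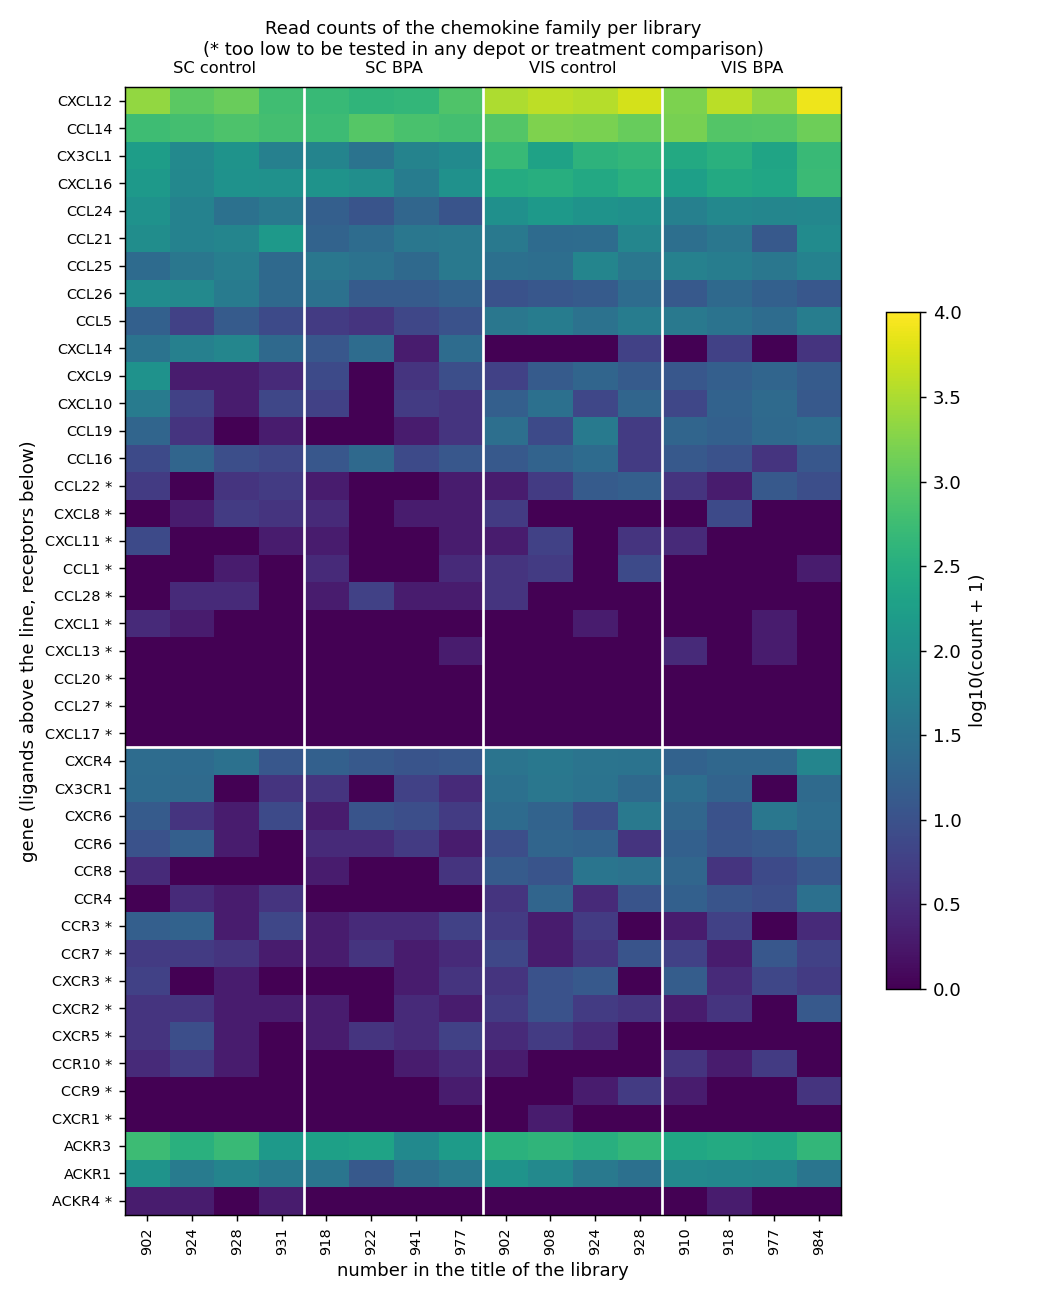
Read counts of 41 of the 42 genes (rows, ligands above the white line and receptors below) in each of the 16 libraries (columns, by number in the library title; SC is subcutaneous and VIS visceral), as log10 of the count plus 1, from dark (0) to bright. CXCL12 and CCL14 are bright in every column, and the 19 genes with an asterisk, which had at most 70 counts over all libraries, stay dark.

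Because long genes collect more reads, levels were compared between genes only as CPM per kilobase of gene length, averaged over the 16 libraries. On that scale CCL14 was highest at 134, followed by CXCL12 at 44.4, ACKR3 at 20.4, CXCL16 at 15.1, CCL21 at 8.33, CX3CL1 at 7.03 and CCL26 at 6.17. CXCL16 and CX3CL1 are the chemokines made as membrane-anchored proteins, which can hold cells as well as attract them. The ligands CCL5 at 3.41 and CCL24 at 3.25 CPM per kilobase followed. CXCR4, the signalling receptor of CXCL12, averaged 2.12 CPM per kilobase, below the scavenging receptor ACKR3 in all 4 groups. The order of all 42 genes was the same under both scalings used.

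**Figure D2:**
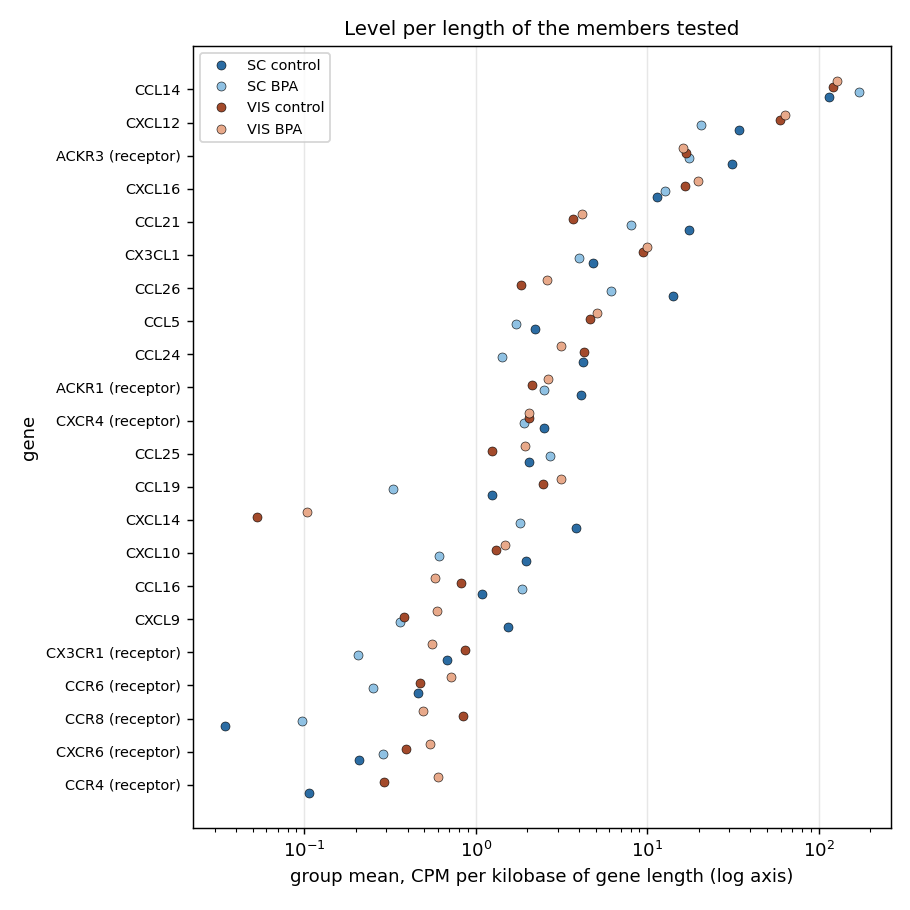
Group mean level of 22 of the 23 genes tested, in CPM per kilobase of gene length on a log axis (SC is subcutaneous, VIS visceral, n = 4 libraries a group). CCL14 and CXCL12 lie at the top in every group, CXCL14 spans the widest range between depots, and CCR4 has no point in subcutaneous BPA because it is listed at 0 there.

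The depot comparison in control animals asked which members differ between visceral and subcutaneous fat where no BPA was given. Of 19 members tested, CXCL14, CCL26 and CCL21 were lower in visceral fat and 0 were higher (edgeR's quasi-likelihood test, adjusted p under 0.05), which is 15.8% of them against 13.3% of all 14456 genes tested (6.16% lower and 7.17% higher). That share is near the background, so it says nothing particular about the family. Visceral and subcutaneous libraries did not overlap for 5 members, CXCL16 and CCL5 above and CXCL14, CCL26 and CCL21 below, or 26.3% against 19.9% of all genes (10.2% above and 9.73% below). CXCL14 passed the low-count filter through its subcutaneous libraries alone and so had to differ, and the member shares carry no weight. The median log2 difference was -0.29 over the members and -0.01 over all genes. In what follows, values of a group stand in the order of the library numbers, which are 902, 924, 928 and 931 for subcutaneous control, 918, 922, 941 and 977 for subcutaneous BPA, 902, 908, 924 and 928 for visceral control, and 910, 918, 977 and 984 for visceral BPA.

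CXCL14, a chemokine of skin and other epithelia that is also secreted by brown fat in mice, had 4.98, 9.29, 10.7 and 4.50 CPM in subcutaneous control libraries and 0, 0, 0 and 0.407 CPM in visceral control libraries. The visceral values come from 5 reads, all in library 928, and every subcutaneous library stood far above it. The fitted log2 difference was -5.91 ± 0.80 (SE, adjusted p = 0.00149). With 3 visceral libraries at 0 its size depends on the small count added before taking logs, and the gene passed the low-count filter through its subcutaneous values alone, so that it had to differ.

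CCL26 and its close neighbour CCL24 are eotaxins, ligands of CCR3 that attract eosinophils. CCL26 had 13.5, 13.1, 7.05 and 4.50 CPM in subcutaneous controls and 0.801, 1.04, 1.12 and 2.03 CPM in visceral controls. Every subcutaneous value lay above every visceral one, and the log2 difference was -2.91 ± 0.44 (adjusted p = 0.00256). CCL24 had 16.8, 10.2, 4.70 and 8.39 CPM in subcutaneous and 8.91, 13.6, 9.83 and 8.05 CPM in visceral controls, 2 ranges that overlap, with a log2 difference of 0.02 ± 0.34 (adjusted p = 0.980). The 2 eotaxin genes lie 21.7 kilobases apart by the deposited gene coordinates. CCL26 differed between the depots, while for CCL24 the approximate 95% interval ran from -0.65 to 0.68.

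CCR3, the receptor they share, was too low to be tested in any comparison. It gave 39 reads in subcutaneous control, 10 in subcutaneous BPA, 9 in visceral control and 8 in visceral BPA libraries. Its mean was 1.66 ± 1.23 CPM (SD, n = 4) in subcutaneous controls and 0.199 ± 0.179 CPM in visceral controls, values given here without a test.

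CCL21 is made by lymphatic vessels and lymph node stroma and guides dendritic and T cells through CCR7. It had 14.01, 9.98, 10.2 and 30.1 CPM in subcutaneous controls and 3.56, 2.27, 2.16 and 5.53 CPM in visceral controls. The lowest subcutaneous library stood above the highest visceral one, and the log2 difference was -2.22 ± 0.43 (adjusted p = 0.00837). Of the 4 lymphatic endothelial markers, PROX1 (log2 difference -1.51 ± 0.33, adjusted p = 0.0149) and FLT4 (-1.46 ± 0.32, adjusted p = 0.0151) were lower in visceral controls as well, while LYVE1 and PDPN did not pass. The list summed to 89.4 to 143 CPM in subcutaneous controls and 57.0 to 74.2 CPM in visceral controls. The part of lymphatic vessels in the CCL21 difference was not tested.

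Markers of other cells moved in the same contrast and stand beside all 3 of these ligands. Mast cell markers (KIT, CPA3, MS4A2, HDC) summed to 49.6 to 86.5 CPM in subcutaneous and 14.2 to 20.0 CPM in visceral controls, with 3 of 4 lower in visceral fat. KIT made up most of these sums, with means of 47.9 and 11.2 CPM. Fibroblast and progenitor markers summed to 2324 to 3494 CPM in subcutaneous and 1133 to 1189 CPM in visceral controls, with 1 of 6 (COL1A1) lower. COL1A1 alone averaged 1766 CPM in subcutaneous and 499 CPM in visceral controls, so the difference in the sums is mostly that of this gene. B and plasma cell markers summed to 31.0 to 202 CPM in subcutaneous and 13.0 to 21.2 CPM in visceral controls, with 2 of the 3 tested (BLK and JCHAIN) lower. JCHAIN made up most of these sums, with means of 86.0 and 11.5 CPM. The part of these cells in the ligand differences was not tested. Without subcutaneous controls 902 and 924, the log2 differences were -2.20 for CCL26 and -2.56 for CCL21, and both still passed. CXCL14, at -5.98, passed too, but its subcutaneous values alone carried it through the filter, so its passing carries no weight.

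Other members fell short of the threshold in this contrast. The nearest were CX3CL1 (log2 difference 0.97 ± 0.30) and ACKR3 (-0.89 ± 0.27), both with an adjusted p of 0.0540. CXCL16 had 21.5, 12.6, 16.9 and 21.5 CPM in subcutaneous and 25.4, 30.7, 22.0 and 28.3 CPM in visceral controls, a small gap without overlap and a log2 difference of 0.56 ± 0.20 (adjusted p = 0.0825). The libraries of the 3 animals with both depots deviated together (correlations of their deviations from the group means 0.271 to 0.417). With the animal as a replicate block 7 of 19 members passed, the 3 ligands above with ACKR1, ACKR3, CX3CL1 and CXCL16, while over all 14456 genes the calls went from 1928 to 2631. In that fit the log2 differences were -1.20 ± 0.14 for ACKR3 (adjusted p = 0.000557), 1.04 ± 0.17 for CX3CL1 (adjusted p = 0.00316) and 0.59 ± 0.18 for CXCL16 (adjusted p = 0.0487). The CCL21 difference was -1.64 ± 0.31.

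**Figure D3:**
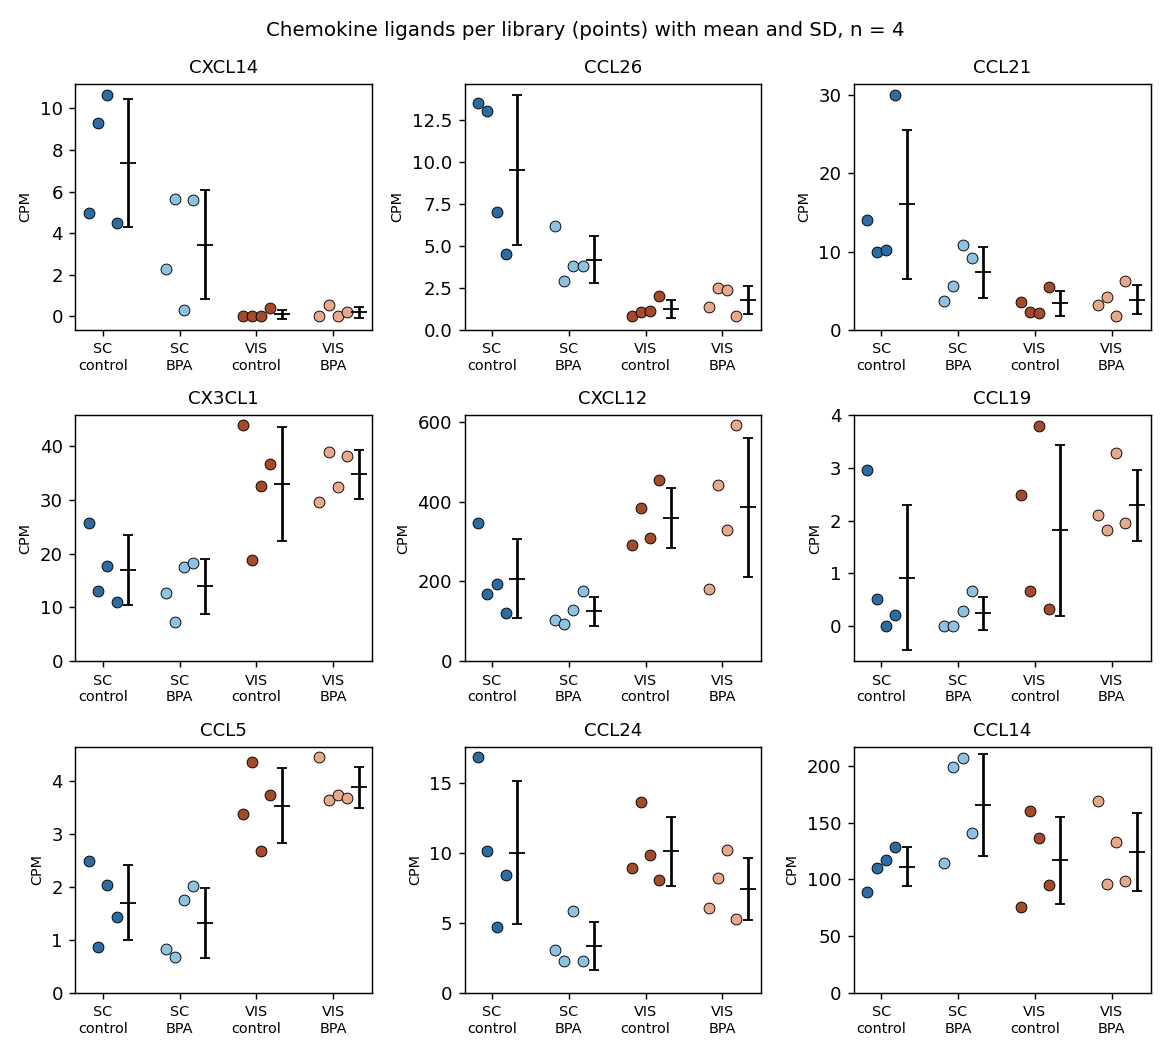
CPM of 9 ligands in each library (points, 4 a group), with the group mean and SD as a bar at the right; SC is subcutaneous and VIS visceral, and bars that reach below 0 are only SD. CXCL14, CCL26 and CCL21 are high in subcutaneous controls, while CX3CL1, CXCL12 and CCL5 are higher in visceral than in subcutaneous BPA libraries without overlap.

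The same depot comparison among BPA animals tested 16 members, and CX3CL1, CXCL12 and CCL19 were higher in visceral fat while 0 were lower, 18.8% of those tested against 9.07% of all 13782 genes (5.13% higher and 3.94% lower). No overlap was seen for 7 members, CX3CL1, CXCL12, CCL19 and CCL5 above and CCL16, CCL26 and CCL25 below, or 43.8% against 18.6% of all genes (9.58% above and 9.02% below). CCL19 passed the filter through its visceral and CCL16 through its subcutaneous libraries alone, so both had to differ and the member shares carry no weight. The median log2 difference was 0.37 over the members and 0.02 over all genes. The comparison shares no library with the one in controls, but each depot contrast shares its libraries with both BPA comparisons below, so these are not independent of each other.

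CX3CL1 (fractalkine), which endothelium and other cells present to monocytes and T cells that carry CX3CR1, had 12.8, 7.22, 17.6 and 18.2 CPM in subcutaneous BPA and 29.5, 38.8, 32.3 and 38.2 CPM in visceral BPA libraries. All 4 visceral values exceeded all 4 subcutaneous ones, with a log2 difference of 1.32 ± 0.27 (adjusted p = 0.0171). In controls the values were 25.7, 13.1, 17.7 and 11.0 CPM in subcutaneous and 43.9, 18.7, 32.6 and 36.7 CPM in visceral libraries, where the groups overlap. Endothelial markers summed to 1478 to 2251 CPM in subcutaneous BPA and 2218 to 2482 CPM in visceral BPA libraries. Of the 5 markers KDR alone was higher in visceral fat in both treatments, by a log2 difference of 0.93 ± 0.24 in BPA animals (adjusted p = 0.0357) and 1.06 ± 0.15 in controls (adjusted p = 0.00173). Whether vessels play a part in the CX3CL1 difference was not tested.

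CXCL12 had 104, 92.7, 128 and 176 CPM in subcutaneous BPA and 180.2, 441, 329.7 and 592 CPM in visceral BPA libraries. The 2 groups did not overlap, although the lowest visceral library, 910, lay only just above the highest subcutaneous one, 977. The log2 difference was 1.62 ± 0.33 (adjusted p = 0.0176). It did not pass without subcutaneous BPA 922 or 941 in turn, with an adjusted p of up to 0.0631. In controls CXCL12 had 348, 169.5, 193 and 120.1 CPM in subcutaneous and 290.5, 383, 309 and 455 CPM in visceral libraries. One high subcutaneous library, 902, overlapped the visceral range there, and the log2 difference was 0.80 ± 0.28 (adjusted p = 0.0848). Without subcutaneous controls 902 and 924 it was 1.19 ± 0.26 (adjusted p = 0.0255). Fibroblast and progenitor markers summed to 1149 to 1937 CPM in subcutaneous BPA and 734 to 2941 CPM in visceral BPA libraries, with 0 of 6 called, and their part was not tested.

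The receptors of CXCL12 are given beside it. CXCR4 had 3.89, 4.13, 4.70 and 2.25 CPM in subcutaneous control, 3.30, 2.71, 2.93 and 2.47 CPM in subcutaneous BPA, 3.03, 3.69, 2.93 and 2.602 CPM in visceral control and 1.90, 2.39, 3.14 and 4.89 CPM in visceral BPA libraries. The 4 ranges overlapped, and the log2 depot difference was -0.29 ± 0.32 in controls and 0.12 ± 0.41 in BPA animals, neither past the threshold. ACKR3 had 85.0, 60.1, 79.1 and 29.0 CPM in subcutaneous controls and 31.8, 39.5, 28.6 and 36.1 CPM in visceral controls, with 3 of 4 subcutaneous libraries above all visceral ones and library 931 within the visceral range. It had 38.9, 46.5, 22.6 and 34.8 CPM in subcutaneous BPA and 26.5, 32.1, 37.4 and 34.02 CPM in visceral BPA libraries, 2 overlapping ranges with a log2 difference of -0.14 ± 0.22. So the highest ACKR3 values were those of subcutaneous controls 902, 924 and 928.

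CCL19, the other CCR7 ligand, had 0, 0, 0.293 and 0.673 CPM in subcutaneous BPA and 2.12, 1.82, 3.29 and 1.96 CPM in visceral BPA libraries. The visceral values were higher without overlap, with a log2 difference of 3.18 ± 0.78 (adjusted p = 0.0326) that rests on 4 subcutaneous and 83 visceral reads. CCL19 passed the filter through the visceral libraries alone and so had to differ, it was tested in only 4 of the fits that left out a library, and it passed in 1 of those. In controls it had 2.96, 0.516, 0 and 0.205 CPM in subcutaneous and 2.49, 0.662, 3.79 and 0.325 CPM in visceral libraries, below the filter in that comparison. CCL21, its neighbour 20.2 kilobases away, had a lower visceral estimate in BPA animals (3.71, 5.64, 10.8 and 9.20 CPM in subcutaneous against 3.12, 4.21, 1.80 and 6.25 CPM in visceral libraries), with a log2 difference of -0.91 ± 0.45 (adjusted p = 0.225). Their receptor CCR7 had only 61 reads over all libraries and was too low to judge.

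CCL5 (RANTES) is made by T and natural killer cells among others and attracts leukocytes. It had 0.824, 0.677, 1.76 and 2.02 CPM in subcutaneous BPA and 4.46, 3.64, 3.74 and 3.69 CPM in visceral BPA libraries, and 2.49, 0.860, 2.04 and 1.43 CPM in subcutaneous and 3.38, 4.35, 2.67 and 3.74 CPM in visceral controls. In each treatment all visceral values exceeded all subcutaneous ones, with log2 differences of 1.56 ± 0.44 (adjusted p = 0.0511) and 1.04 ± 0.38 (adjusted p = 0.0960), neither past the threshold. T and natural killer cell markers summed to 3.38 to 25.8 CPM in subcutaneous BPA and 21.5 to 49.6 CPM in visceral BPA libraries, with 0 of 5 called, and their part in the CCL5 values was not tested.

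CCL16 and CCL25, a CCR1 ligand of liver and the gut-homing ligand of CCR9, had the opposite order of depots in BPA animals. CCL16 averaged 2.94 ± 1.36 CPM (SD, n = 4) in subcutaneous BPA and 0.910 ± 0.372 CPM in visceral BPA libraries (log2 difference -1.66 ± 0.50, adjusted p = 0.0598), and passed the filter through the subcutaneous libraries alone. CCL25 averaged 7.56 ± 1.19 and 5.45 ± 0.784 CPM (log2 difference -0.48 ± 0.27, adjusted p = 0.289). CCL26 had 6.18, 2.93, 3.81 and 3.81 CPM in subcutaneous BPA and 1.34, 2.51, 2.40 and 0.828 CPM in visceral BPA libraries, again higher in subcutaneous fat without overlap, with a log2 difference of -1.27 ± 0.47 (adjusted p = 0.111). CXCL14, with 2.27, 5.64, 0.293 and 5.61 CPM in subcutaneous and 0, 0.569, 0 and 0.226 CPM in visceral BPA libraries, did not pass the filter and was not tested in BPA animals.

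Prenatal BPA was compared with the vehicle within each depot. In subcutaneous fat 0 of 14 members passed, against 0.709% of all 13535 genes (96 genes), and 7 had an unadjusted p under 0.05, against 14.2% of all genes. Their estimates were lower after BPA for 10 and higher for 4, with a median log2 difference of -0.72 against -0.01 over all genes. BPA and control libraries overlapped for every member, while 7.45% of all genes had no overlap. The smallest adjusted p was 0.147, so no member can be said to have changed by this test.

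The smallest p belonged to CCL24, with 3.09, 2.26, 5.86 and 2.24 CPM after BPA against 16.8, 10.2, 4.70 and 8.39 CPM in controls and a log2 difference of -1.59 ± 0.44 (adjusted p = 0.147). Library 941 of the BPA group lay inside the control range, and the other 3 lay below it. DESeq2 called this gene (adjusted p = 0.0271), and 0 of the edgeR alternatives did. The other eotaxin, CCL26, was estimated at -1.18 ± 0.39 (adjusted p = 0.216), with the values already given. CCL21 was estimated at -1.13 ± 0.43 (adjusted p = 0.278), and the lymphatic endothelial markers summed to 89.4 to 143 CPM in controls and 58.9 to 90.7 CPM after BPA, with 0 of 4 called. CXCL14 was estimated at -1.07 ± 0.57 (adjusted p = 0.430).

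CCL14 was the member with a higher estimate and an unadjusted p under 0.05. It had 115, 199.6, 207 and 141 CPM in subcutaneous BPA and 88.9, 109.8, 118 and 129 CPM in subcutaneous control libraries, with overlap and a log2 difference of 0.58 ± 0.21 (adjusted p = 0.245). In visceral fat it had 75.5, 160.2, 136 and 95.5 CPM in controls and 169, 96.1, 133 and 98.5 CPM after BPA, 2 ranges that overlap widely. CCL16 lies 1.72 kilobases from CCL14 by the deposited gene coordinates. The genes do not overlap by these coordinates, and whether reads of one were counted for the other was not tested.

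CXCL12 and its scavenger were both estimated lower after BPA in subcutaneous fat, at -0.72 ± 0.31 for CXCL12 (adjusted p = 0.318) and -0.82 ± 0.31 for ACKR3 (adjusted p = 0.274). All 4 receptors tested there, ACKR1, ACKR3 and CXCR4 among them, had estimates below 0, while 49.2% of all genes lay above 0. The summed receptor level was 105 ± 38.9 CPM (SD, n = 4) in controls and 59.5 ± 4.97 CPM after BPA. ACKR3 alone made up most of these sums, with means of 63.3 and 35.7 CPM. The sums spread over 52.8 to 64.5 CPM in BPA libraries and 56.5 to 152 CPM in controls, where library 902 was the highest, so the ranges overlap.

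Several of these estimates were closer to 0 without a pair of control libraries. Without subcutaneous controls 902 and 924, the log2 difference was -0.96 for CCL24, -0.46 for CCL26 and -0.32 for CXCL12, while ACKR3 stood at -0.59, CCL14 at 0.43 and CCL21 at -1.45. The same 2 libraries hold the high B and plasma cell markers. Macrophage and monocyte markers summed to 573 to 818 CPM in subcutaneous controls and 315 to 510 CPM after BPA, with TYROBP lower (log2 difference -1.75 ± 0.33, adjusted p = 0.0447) as the 1 called gene of 8. Mast cell markers summed to 49.6 to 86.5 CPM in controls and 16.2 to 28.1 CPM after BPA, with 0 of 3 called. KIT made up most of these sums, with means of 47.9 and 18.4 CPM. Fibroblast and progenitor markers summed to 2324 to 3494 CPM in controls and 1149 to 1937 CPM after BPA, with 1 of 6 (THY1) lower. COL1A1, which was not called, made up most of these sums, with means of 1766 and 822 CPM. The part of these cells, lymphatic vessels included, in the member estimates was not tested.

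**Figure D4:**
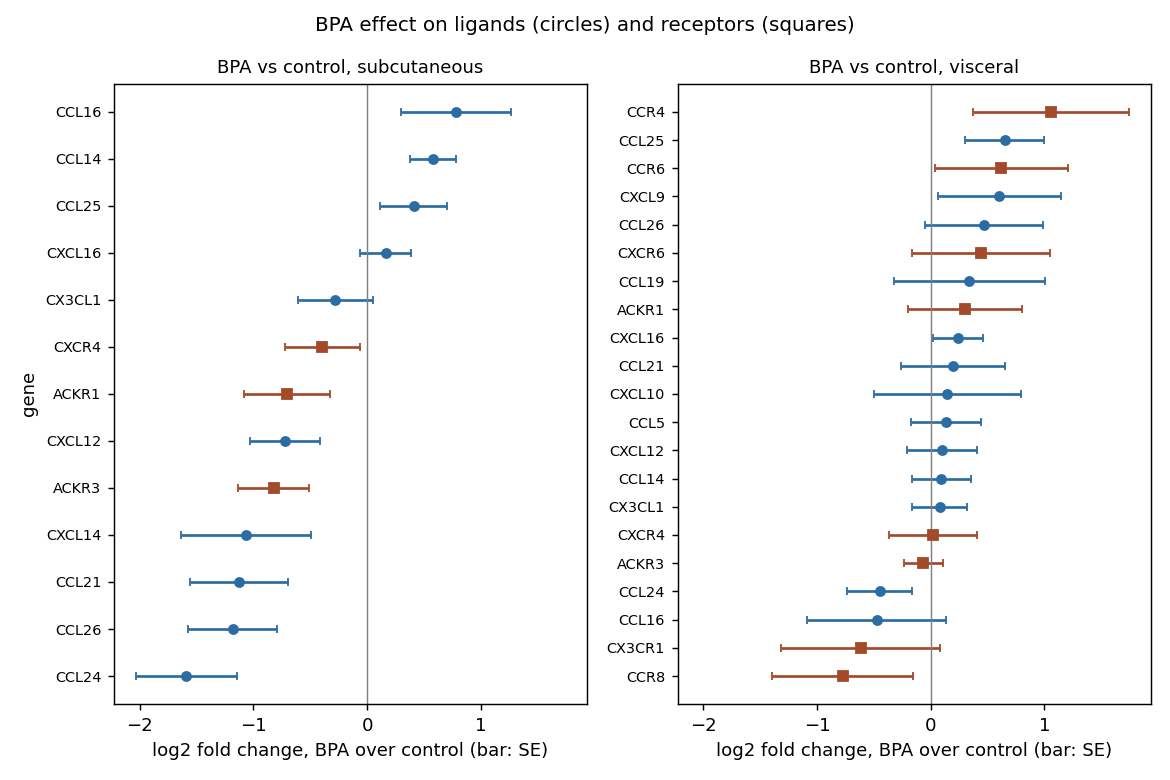
Log2 difference between BPA and control libraries for members tested in subcutaneous (left) and visceral fat (right), with the SE as a bar; ligands are circles and receptors squares, and the genes are sorted within each panel. Of the estimates drawn, 9 of 13 lie below 0 in subcutaneous fat and 16 of 21 lie above 0 in visceral fat, and 0 passed the test in either depot.

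In visceral fat 0 of 22 members passed, and 0% of all 14774 genes did by the same test. At an unadjusted p under 0.05 there were 0 members against 7.47% of all genes, and DESeq2 called 0 members too. Estimates were higher after BPA for 17 and lower for 5, with a median log2 difference of 0.17 over the members and 0.0019 over all genes. BPA and control libraries overlapped for every member here too, against 4.03% of all genes without overlap.

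CCL25 had the smallest p in this comparison, with 2.58, 2.55, 5.69 and 3.09 CPM in visceral controls and 6.35, 5.47, 5.54 and 4.44 CPM after BPA and a log2 difference of 0.65 ± 0.35 (adjusted p = 0.658). Control library 924 lay inside the BPA range. In subcutaneous fat CCL25 had 3.74, 6.54, 7.99 and 4.50 CPM in controls and 7.62, 6.99, 6.45 and 9.20 CPM after BPA, with a log2 difference of 0.41 ± 0.30 (adjusted p = 0.569). CCL24 was estimated at -0.45 ± 0.28 in visceral fat (adjusted p = 0.685), from values of 6.02, 8.20, 10.2 and 5.27 CPM after BPA.

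For abundant members the visceral estimates are given with their intervals. The log2 difference after BPA was 0.10 for CXCL12 (approximate 95% interval -0.51 to 0.71), 0.08 for CX3CL1 (-0.39 to 0.55), 0.09 for CCL14 (-0.42 to 0.60) and -0.06 for ACKR3 (-0.40 to 0.28). These intervals bound the change in these libraries and do not show that there was none.

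CCR4 and CCR8, receptors of skin-homing, helper and regulatory T cells, passed the filter in visceral fat alone. CCR4 had 0.267, 1.80, 0.172 and 0.813 CPM in visceral controls and 1.78, 1.14, 1.20 and 2.18 CPM after BPA (log2 difference 1.06 ± 0.69, adjusted p = 0.688). CCR8 had 1.16, 0.946, 3.02 and 2.52 CPM in visceral controls and 2.23, 0.342, 1.05 and 0.828 CPM after BPA (-0.78 ± 0.62, adjusted p = 0.733). In both the groups overlap.

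In subcutaneous fat CCR4 gave 6 reads in control and 0 in BPA libraries, where a count of 0 allows up to 0.618 to 0.879 CPM in a library. Over the BPA groups, its 63 pooled visceral reads stood at 9.55 times a floor of 3 reads over the subcutaneous group. That ratio allows for counting error in the subcutaneous group alone, and not for the spread between animals. In controls CCR4 averaged 0.279 ± 0.264 CPM (SD, n = 4) in subcutaneous and 0.763 ± 0.745 CPM in visceral libraries. CCR8 gave 2 and 4 subcutaneous reads against 89 and 41 visceral ones, in control and BPA libraries respectively. Neither passed the filter in a depot comparison. Without a low-count filter CCR8 was called higher in visceral fat in controls and CCR4 in BPA animals. T and natural killer cell marker sums in the 4 groups were 16.0 to 45.5 (subcutaneous control), 3.38 to 25.8 (subcutaneous BPA), 21.0 to 34.6 (visceral control) and 21.5 to 49.6 CPM (visceral BPA), and their part was not tested.

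Whether the BPA difference itself differs between depots was tested on all 16 libraries. Of 21 members tested 0 passed, and 0% of all 14793 genes did, with 3 members, CCL26 and CCL24 among them, at an unadjusted p under 0.05 against 6.2% of all genes, and DESeq2 called 0 members. The difference, visceral minus subcutaneous, was 1.65 ± 0.64 for CCL26 (adjusted p = 0.725), 1.15 ± 0.53 for CCL24 (adjusted p = 0.794) and 1.34 ± 0.65 for CCL21 (adjusted p = 0.8286). It was above 0 for 19 of 21 members, with a median of 1.01 over the members and 0.02 over all genes, of which 51.9% lay above 0. Members of a family in 1 set of libraries move together and are not replicates of each other, and no test was made over the list. Without subcutaneous controls 902 and 924 the values were 0.93 for CCL26 and 0.52 for CCL24.

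The ligand and receptor pairs that remain were low. CX3CR1, the CX3CL1 receptor, had 3.74, 3.96, 0 and 0.614 CPM in subcutaneous control, 0.618, 0, 1.47 and 0.449 CPM in subcutaneous BPA, 2.58, 3.50, 2.76 and 1.79 CPM in visceral control and 3.01, 2.05, 0 and 1.73 CPM in visceral BPA libraries, with a 0 in 3 of the 4 groups. Its visceral BPA estimate of -0.62 ± 0.70 (adjusted p = 0.798) and its depot estimate in controls of 0.35 ± 0.75 (adjusted p = 0.795) did not pass. CXCR6, which holds resident T cells in tissue and binds CXCL16, had 2.02, 0.516, 0.157 and 1.43 CPM in subcutaneous control, 0.206, 2.26, 2.34 and 0.897 CPM in subcutaneous BPA, 2.14, 1.70, 0.690 and 3.25 CPM in visceral control and 2.23, 1.02, 5.54 and 1.96 CPM in visceral BPA libraries. All 4 groups overlap, and none of its differences passed. CXCL16 itself had 23.1, 21.0, 13.5 and 23.1 CPM in subcutaneous BPA and 20.3, 30.6, 34.6 and 40.0 CPM in visceral BPA libraries (log2 difference 0.63 ± 0.25, adjusted p = 0.130).

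**Figure D5:**
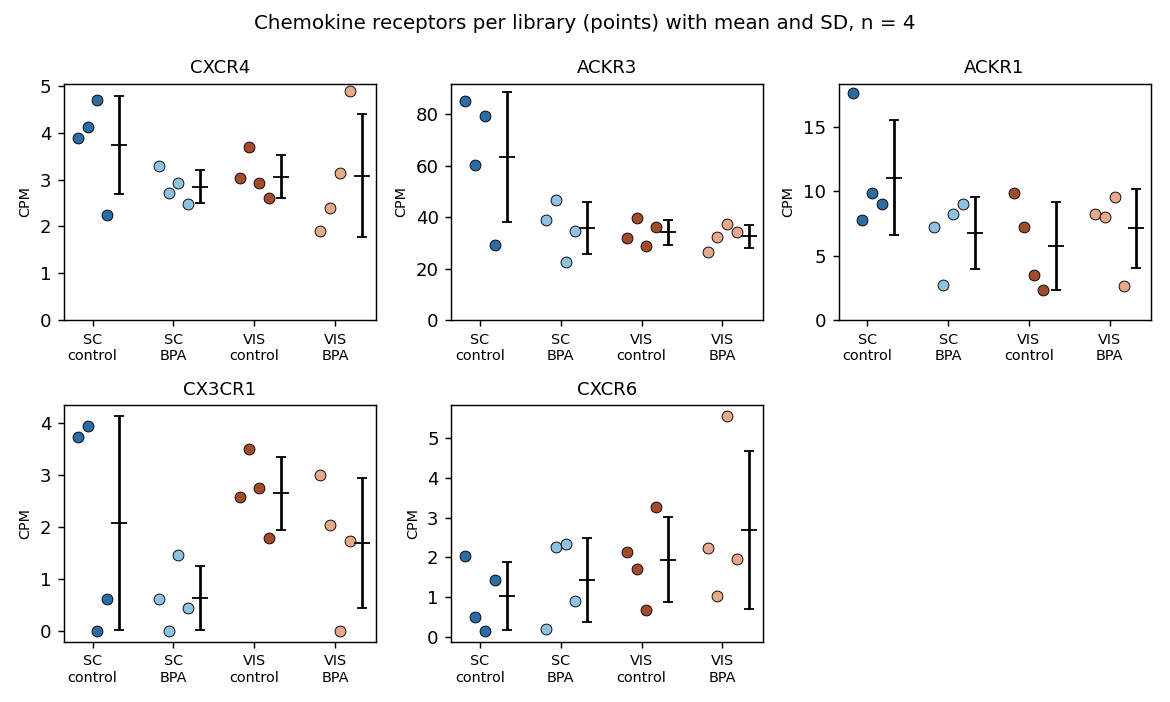
CPM of 5 receptors in each library (points, 4 a group), with the group mean and SD as a bar at the right; SC is subcutaneous and VIS visceral, and bars that reach below 0 are only SD. ACKR3 is widest in subcutaneous controls, where it runs from 29.0 to 85.0 CPM, and CXCR4 overlaps in all groups.

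CXCL9 and CXCL10 are interferon-induced ligands of CXCR3 on activated T cells. CXCL9 had 17.0, 0.172, 0.157 and 0.409 CPM in subcutaneous controls, 1.44, 0, 0.879 and 1.79 CPM in subcutaneous BPA, 0.445, 1.23, 1.64 and 1.06 CPM in visceral controls and 1.23, 1.71, 2.85 and 0.978 CPM in visceral BPA libraries. CXCL10 had 7.01, 0.860, 0.157 and 1.23 CPM in subcutaneous controls, 1.03, 0, 1.17 and 0.673 CPM in subcutaneous BPA, 1.34, 2.74, 0.517 and 1.54 CPM in visceral controls and 0.669, 1.94, 3.44 and 0.903 CPM in visceral BPA libraries. Subcutaneous control 902 was the highest for both, and the 2 genes lie 19.3 kilobases apart. In that library IRF1, an interferon-induced factor, stood at 28.5 CPM against 13.9 to 18.2 CPM in the other 3 controls. IFNG, the interferon gamma gene, is listed at 0 in all libraries. CXCL11 and CXCR3 were too low to judge.

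Of the remaining members tested, ACKR1 averaged 11.1 ± 4.45 CPM (SD, n = 4) in subcutaneous control, 6.77 ± 2.81 CPM in subcutaneous BPA, 5.74 ± 3.44 CPM in visceral control and 7.11 ± 3.07 CPM in visceral BPA libraries. CCR6, the receptor of CCL20 on B cells and some helper T cells, averaged between 0.565 and 1.61 CPM in the groups. CCR6 was tested in 3 of the 5 comparisons and passed in 0 of them. ACKR1 was tested in all 5 and passed in 0, but was lower in visceral fat in the control depot fit with the replicate block.

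The 19 members too low to judge hold 458 counts in all, 0.611% of the family's. CCL20, CCL27 and CXCL17 had 0 reads in every library, which allows up to 0.226 to 0.879 CPM, depending on the library. CCL28, CXCL11, CCL1, CXCL8, CXCL1 and CXCL13 had 4 to 23 reads each over all 16 libraries, and CCL22 had 70. Thus neither the B cell attractant CXCL13 nor the neutrophil attractants CXCL1 and CXCL8 could be judged in fat at this depth.

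Among the receptors, CCR9, CCR10 and CXCR1 had 1 to 19 reads, CXCR5 31, CXCR2 48, CXCR3 60, CCR7 61 and CCR3 66, and the scavenger ACKR4 had 4. CXCR1 and CXCR2, the neutrophil receptors of CXCL8, are similar in sequence and lie 19.9 kilobases apart. Whether any of their few reads were given to the wrong gene was not tested. Neutrophil markers were low too, at 0 to 3.27 CPM summed over S100A8, S100A9, CSF3R and MMP8, with MMP8 at 0 in every library. No row named CCL2, CCR1 or CCR2 was among the 42 members, so these genes were not analysed here.

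Signalling partners and regulators of the chemokine system were read from a list of 34 other genes, 31 of which have rows. In controls, 1 of 26 tested was higher in visceral fat and 2 were lower, against 7.17% and 6.16% of all genes. Beside these shares the counts say nothing particular about the list. The chemerin gene RARRES2, whose product attracts cells through CMKLR1, was higher (log2 difference 0.68 ± 0.14, adjusted p = 0.0116), and ARRB1, a beta-arrestin that ends receptor signals, was lower (-0.86 ± 0.21, adjusted p = 0.0244), as was PIK3CG, a kinase that chemokine receptors activate (-0.68 ± 0.20, adjusted p = 0.0438). In BPA animals 1 of 24 passed, against 9.07% of all genes. It was GNAI2, the G protein subunit of chemokine receptors in leukocytes, which was higher in visceral fat (0.58 ± 0.14, adjusted p = 0.0326). BPA against control gave 0 of 25 in subcutaneous and 0 of 27 in visceral fat, against 0.709% and 0% of all genes. The median log2 differences over the list were -0.31 and -0.01.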

How the data were processed

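Ribosomal RNA was removed before library preparation with a kit for low RNA input, per the labels' protocols. The authors deposited 1 table of whole-number counts per gene with gene lengths, and the file holds 0 non-whole values although its name calls it normalized. FastQC 0.11.5, MultiQC 0.9, STAR 2.6.0c and featureCounts of Subread 1.6.1 are named, per the submitters' processing notes. The build, the annotation and how strand was treated were not given in the sources used here, so reads from overlapping or antisense genes may not be told apart.

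Members were found by symbol. They enter all counts, sums and medians, but values of 1 member and of 1 gene of the list of other genes are not reported here. The members and gene lists were chosen with earlier results of these data known. Libraries of 1 group were taken as replicates, as the labels have them, and the spread between them is that of animals. The comparisons were fitted in R 4.3.3 with edgeR 4.0.16 (glmQLFit and glmQLFTest, two-sided, TMM scaling, filterByExpr at a minimum of 10 counts in a library and 15 in total) on the whole table, with Benjamini-Hochberg adjustment over all genes tested, calls at an adjusted p under 0.05, and the SE taken as the log2 difference over the root of F. Each 2-group fit used its 8 libraries, and the difference between BPA effects used all 16. CPM for display were scaled by TMM over all 16 libraries. The fits were tested on simulated data. Values in every library are given for called members, the 4 of smallest p in each comparison and known ligand and receptor pairs that passed the filter. The floor of an unseen gene is 3 counts, and covers counting error only.

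The main depot fits did not pair libraries by number. Pairing entered through the replicate block, an alternative fit. Control numbers were counted as pairs, since the deviations from the depot means of all 3 numbers found in both depots correlated over 0.1. Alternatives were DESeq2 1.42.0 (with its size factors also in edgeR), other filters, thinning to the lowest total, 1 fit of all libraries, leaving out libraries and the replicate block (limma 3.58.1 for the fit of all libraries). No genome or sequence table was used here.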

Additional observations from a re-analysis of the deposited data

Results flagged for a closer look

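In 9 of 91 groups of 4 libraries, the highest or lowest library stood apart from the other 3 by Dixon's 95% limit. Chance flags about 1 in 20 groups where values are normally distributed. Low counts are not of that kind, so the shares cannot be compared. Subcutaneous control 902 was far above the other 3 libraries of its group for CXCL9, at 17.0 CPM (109 reads) against 0.157 to 0.409 CPM, and for CXCL10, at 7.01 CPM (45 reads) against 0.157 to 1.23 CPM. The same library held the only CCR8 reads of its group, 2 in number, at 0.311 CPM.

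CCL16 was highest in subcutaneous control 924 at 3.27 CPM, against 1.09 to 1.25 CPM in the others, and in subcutaneous BPA 922 at 4.96 CPM, against 2.05 to 2.47 CPM. CCL25 was highest in visceral control 924 at 5.69 CPM, against 2.55 to 3.09 CPM. CCL5 was highest in visceral BPA 910 at 4.46 CPM, against 3.64 to 3.74 CPM. CCR6 was lowest in visceral BPA 918 at 1.14 CPM (10 reads), against 1.73 to 1.80 CPM. CXCL14 was detected in visceral control 928 alone of its group, at 0.407 CPM (5 reads).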

How the results depend on the processing

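0 named log2 differences reversed sign under any alternative; 460 kept their side of the threshold, 25 passed it newly and 7 lost it, and the cause of these moves was not tested. In the control depot comparison, 3 members passed as reported, 6 with DESeq2, 6 without a low-count filter (CCR8 among them), 6 after thinning, 7 with the replicate block, 5 without subcutaneous controls 902 and 924 together, and 3 to 6 with 1 library left out (6 without subcutaneous control 902, 5 without 928, 5 without 931). CCL26 and CCL21 passed in all 8 of these omissions, and so did CXCL14, which its subcutaneous values alone carried through the filter. In the BPA depot comparison, 3 passed as reported, 6 with DESeq2, 6 without a filter (CCR4 among them), and 1 to 4 with 1 library left out; without subcutaneous BPA 922 CX3CL1 alone passed. The 2 BPA numbers found in both depots were too few to count as pairs, with correlations of 0.172 (918) and -0.00535 (977); with the replicate block 2 members passed there, and CCL19 did not (adjusted p = 0.127, 0.0326 as reported). The block left 0 members for the difference between BPA effects. In the subcutaneous BPA comparison DESeq2 called 1 member, CCL24. After thinning, 1 member was without overlap between visceral BPA and control libraries, against 0. A filter of 50 counts in 4 libraries left 33 members too low, against 19. Over all genes, subcutaneous BPA calls went from 96 to between 0 (without subcutaneous controls 902 and 924) and 464 (DESeq2), visceral BPA calls from 0 to 6 (DESeq2), control depot calls from 1928 to between 1043 and 2772, and BPA depot calls from 1250 to between 369 and 2408. Control depot calls were 2772 of 14456 genes with DESeq2 and 2631 of 14456 with the block. They were 1985 of 21621 without a filter, 1499 of 12646 after thinning and 1138 of 15431 without subcutaneous controls 902 and 924. BPA depot calls were 2197 of 13782 with DESeq2, 892 of 13782 with the block and 1328 of 21255 without a filter. They were 369 of 14256 without subcutaneous BPA 922 and 2206 of 13725 without visceral BPA 977, which stood apart in its cell type markers. The member counts of a setting are to be read beside these. Subcutaneous BPA libraries, the shallowest, limit the low members most.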
